A study of Saccharomyces cerevisiae with 54 samples.

Results

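Broad domains of acetylated histone H4 were followed across the peak lists of a budding yeast ChIP-seq series. The regions were chosen by 1 readout. They are the H4 acetylation (H4ac) peaks of the first wild-type library without spike-in that are at least 2000 bp wide, lie on the 16 nuclear chromosomes and have at least 50% of their bases under peaks of the second wild-type library of that set. Of 2897 peaks in that list, 487 (16.8%) reached the width, and the second library supported all 487 of them, by at least 74.3% of their bases and by 98.7% at the median. The remaining 2295 supported peaks under 2000 bp, called narrower regions here, served for comparison.

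The series asks how loss of the histone deacetylase Hda1 and of the corepressor Tup1 changes histone acetylation, and where Hda1 sits on chromatin. Cells were grown in YPD at 30 °C, and 2 libraries of each kind were compared by called peaks. H4ac, bound by an antibody to tetra-acetylated H4, was measured in *hda1∆* (labelled hda1-/-, strain YTK113), *tup1∆* (tup1-/-, YTK202) and wild-type (YSB787) cells, in a set with *S. pombe* spike-in chromatin and in a set without. H3 acetylation (H3ac, with an antibody to di-acetylated H3) was measured in these strains in the set without spike-in only. An anti-myc antibody was used in both sets on cells with Hda1(arb2{delta})-18myc, which lacks the Arb2 domain (YTK383), on cells with Hda1-18myc (YTK376, Hda1-myc below) and on untagged cells (YTK304). Each genotype is 1 strain. The paper describes its paired libraries as independent ChIP-seq experiments, and neither it nor the labels say whether they came from separate cultures. The tests measure the spread between these libraries.

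Acetylation of the lysines in histone tails is laid down by acetyltransferases such as NuA4 on H4 and SAGA on H3, and is removed by deacetylases. In yeast, acetylated nucleosomes flank active promoters, and acetylation is lower over the bodies of most transcribed genes. A domain of acetylated H4 that runs through whole genes therefore differs from the usual promoter peak. Hda1 is the catalytic subunit of a complex with Hda2 and Hda3, and Tup1 with its partner Cyc8 represses many inducible genes.

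The peak lists hold no read counts and the depth of the libraries is unknown. Peak heights were therefore not compared between libraries, and the measurement used below is the percent of a region lying under called peaks (coverage). Losses and gains below are of coverage, and a lower coverage is not by itself a lower level of acetylation. From spike-in normalized signal over all genes, a different measure, the paper reports a strong rise of H4ac within more active genes in *hda1∆* but not *tup1∆*. Coverage has a ceiling of 100%, and regions selected on wild-type libraries can more easily lose coverage than gain it. The spike-in set libraries were not used in the choice, although its wild-type libraries measure the same strain and mark as those that were. Peaks covered between 2681703 and 4192994 bp in the acetylation libraries. A pair of anti-myc libraries stood apart from their partners. The second Arb2-deleted library of the spike-in set had 59 peaks against 628 in the first, and the first untagged library of that set had 235 peaks against 10 in the second. *HDA1* carried no H4ac or H3ac peak in any *hda1∆* library and carried peaks in every *tup1∆* and wild-type one. *TUP1* carried no H4ac peak in *tup1∆* libraries and carried H4ac peaks in all others, while H3ac peaks touched it in no strain.

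The broad regions were few in number and held much of the peak length. They ranged from 2000 to 10951 bp with a median of 2642 bp and quartiles of 2281 and 3238 bp, and 25 exceeded 5000 bp. Together they spanned 1425070 bp, which was 39.0% of the bases under peaks in the library that defined them and 11.8% of the nuclear genome. All 16 chromosomes held some, from 11 on chromosomes I and VI to 58 on chromosome IV, and the share of a chromosome inside them ran from 9.0% on II to 17.6% on III. The deposited fold enrichment at the summit, in the same library, was 2.65 at the median of broad regions and 1.83 at that of narrower ones, a description of the file that chose them. Just inside the limit lay regions of 2000 bp over *MPD2*, 2000 bp over *YER159C-A* and 2003 bp over *ACP1*. Just outside it lay 1996 bp over *GNA1* and *SMX2*, 1989 bp with no gene, and 1988 bp over *MAM33* and *PCI8*, with folds of 1.92 to 3.12 against 3.06 to 3.16 inside.

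Most broad regions ran through whole genes. A gene was counted as spanned when at least 50% of its coding region, from start to stop codon, lay in a broad region, and 1005 of 6002 nuclear protein-coding genes (16.7%) were. Of the 487 regions, 420 held at least 1 complete coding region, 143 spanned 1 gene, 187 spanned 2, 95 spanned 3, 44 spanned 4 or more and 18 spanned none. The spanned genes were short, with a median coding length of 767 bp against 1200 bp over all genes, and so were the genes spanned by narrower regions, at 775.5 bp. Coding sequence filled 67.0% of the bases of broad regions and 69.8% of those of narrower ones.

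Compared with narrower regions, the broad ones took in the 3′ ends of genes more often. They held 0.95 start codons and 0.589 stop codons per 1000 bp, against 1.14 and 0.341 in narrower regions. Of gaps between genes whose 3′ ends face each other (convergent), 143 of 1513 (9.45%) had their midpoint in a broad region and 92 (6.08%) in a narrower one, although narrower regions are more numerous. Of gaps between genes that diverge from a shared upstream stretch, 348 of 1527 (22.8%) lay in broad and 516 (33.8%) in narrower regions. At least 1 divergent gap fell within 311 of the 487 regions (63.9%), and 429 regions held 2 or more start codons. Since width was the criterion and coverage of gene ends follows from width, these figures describe the regions and were not tested. Of 275 nuclear tRNA genes, 18 (6.55%) lay in broad and 3 in narrower regions, and of 76 snoRNA genes 12 lay in broad and 8 in narrower ones. Within 30 kb of a chromosome end, a stretch that makes up 7.96% of the nuclear genome, lay 29 broad regions (5.95%) and 137 narrower ones (5.97%), nearly equal shares.

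The 10 widest regions each spanned 3 or more genes. The widest, 10951 bp at chrX:614662-625612 (coordinates of the peak file, counted from 1), spanned 7 genes, among them *URA8* (CTP synthase), *ADO1* (adenosine kinase), *AIM25* and *RSM26*, a protein of the small mitochondrial ribosomal subunit. Spike-in H4ac peaks covered 99.5 and 99.7% of it in *hda1∆*, 100 and 100% in *tup1∆* and 100 and 100% in wild-type libraries. The next, 8743 bp at chrVII:521200-529942, spanned 8 genes including *UGA1*, the GABA transaminase, and the third, 8110 bp at chrI:30076-38185, spanned *GDH3*, *BDH1*, *BDH2* and *ECM1*, of which *GDH3* encodes a glutamate dehydrogenase and the *BDH* genes butanediol dehydrogenases. Chromosome X held 3 more of the 10, with *MET3* (ATP sulfurylase), with *TES1* and *REC107*, and with *NPA3*. The others held *STE14* on IV, *ILV6* and the SAGA subunit gene *SGF29* on III, *PKP1* and *CBR1* on IX, and *TOS2*, *HSV2* and *PET54* on VII. In 9 of the 10, every H4ac library of the spike-in set covered at least 85.6% of the region. The exception was the *PET54* region, 5963 bp wide, with 77.8 and 66.7% in *hda1∆*, 61.5 and 65.1% in *tup1∆* and 84.2 and 84.3% in wild-type libraries.

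By function, the spanned genes were unevenly shared out among lists of known genes, read here without a test. Counts for broad regions are to be read beside the 16.7% of all genes that broad regions spanned. Those for narrower regions are to be read beside the 1190 of 6002 genes that narrower regions spanned. Of 66 mitochondrial ribosomal protein genes, 23 (34.8%) were spanned by broad regions, among them *MRPL1*, *MRPS9* and *RSM26*, and 26 (39.4%) by narrower ones. Of 33 proteasome subunit genes, broad regions spanned 8 (24.2%), including *PRE1* and *RPN12*, and narrower ones 10 (30.3%). Of 11 histone genes, broad regions spanned 4, *HHT1*, *HHF1*, *HTA1* and *HTB1*, and narrower ones 5. Of 75 genes of amino acid biosynthesis, broad regions spanned 18 (24.0%), including *LYS1*, *ARG1*, *MET3*, *MET14* and *ILV6*, and narrower ones 11 (14.7%). Of cytoplasmic ribosomal protein genes, 6 of 137 cytoplasmic ribosomal protein genes (4.38%) were spanned by broad regions and 17 (12.4%) by narrower ones. For broad regions, glycolysis had 1 of 20 (*TDH2*), meiosis and sporulation 3 of 59 (*ZIP1*, *REC107* and *IME1*), ribosome biogenesis 8 of 97, chaperones 2 of 28, and neither the 15 hexose transporter genes nor the 26 genes of cyclins and cell cycle control had any. Narrower regions spanned 3 of the glycolysis genes, 6 of meiosis, 8 of ribosome biogenesis, 2 of chaperones, none of the hexose transporters and 5 of the cyclin list. The respiratory chain and TCA cycle list of 50 had 8 genes in broad and 21 in narrower regions, and the list of 49 genes of acetyltransferase and deacetylase complexes had 5 and 6. Glucose-repressed carbon use had 3 of 28 in broad and 10 in narrower regions, ergosterol synthesis 3 of 24 and 7, and flocculins and cell wall 3 of 23 and 4. Median coding length was 706.5 bp in the mitochondrial ribosomal list, 771 bp in the cytoplasmic ribosomal list and 1704 bp in the hexose transporter list, and the part of length in these counts was not tested.

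In both mutants, most of the length of broad regions lay under H4ac peaks. In the spike-in set, mean coverage over the 487 regions was 89.3 and 90.5% in *hda1∆*, 90.7 and 93.7% in *tup1∆*, and 95.3 and 96.3% in wild-type libraries. All 4 mutant libraries lay below both wild-type ones. The mean was 89.9 ± 0.883% in *hda1∆* and 95.8 ± 0.687% in wild-type (SD, n = 2 libraries each), a difference of -5.90 percentage points (exact permutation test, two-sided, p = 0.33, 0.40 after Benjamini-Hochberg adjustment over 18 tests). In *tup1∆*, the mean was 92.2 ± 2.103%, a difference of -3.59 points from the same wild-type libraries (exact permutation p = 0.33, 0.40 adjusted). With 2 libraries against 2, no p can fall below 0.33, so neither difference could pass 0.05. Broad regions at 90% or more in both libraries numbered 286 (58.7%) in *hda1∆*, 346 (71.0%) in *tup1∆* and 407 (83.6%) in wild-type. Of narrower regions, 33.4% were in *hda1∆*, 56.1% in *tup1∆* and 59.5% in wild-type. Broad regions under 50% in both numbered 3 (0.616%) in *hda1∆*, 11 (2.26%) in *tup1∆* and 1 (0.205%) in wild-type, against 21.5%, 9.33% and 7.76% of narrower ones in the same strains.

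**Figure D1:**
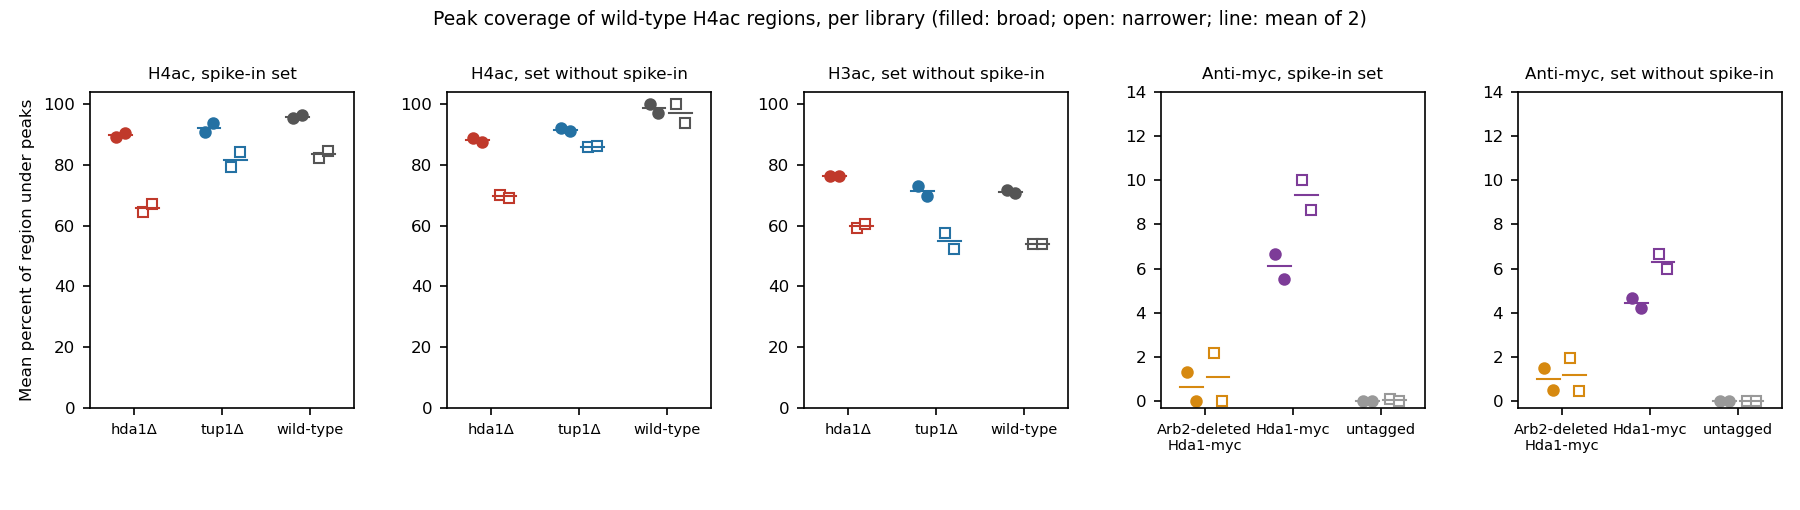
Mean percent of the region under peaks (vertical axis) in each library, for the 487 broad (filled) and 2295 narrower (open) regions, with a line at the mean of 2 libraries. H4ac coverage of broad regions in the spike-in set was 89.3 to 93.7% in the mutants and 95.3 and 96.3% in wild-type; anti-myc panels have their own scale, to 14%, and in the H4ac panel without spike-in the first wild-type library is at 100% by definition.

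The change in *hda1∆* was smaller over broad than over narrower regions, but that order depended on how much of the genome was called. Narrower regions had 64.5 and 67.0% coverage in *hda1∆* and 82.3 and 84.6% in wild-type, a difference of -17.7 points, so that the change at broad minus the change at narrower regions was 11.8 points (exact permutation p = 0.33, 0.40 adjusted). When the peaks of each library were taken in order of q until all 4 libraries covered the same length, this turned to -5.40 points, while the difference at broad regions itself was -5.11. In *tup1∆*, the change at broad minus that at narrower regions was -1.79 points (exact permutation p = 0.33), and it was 2.36 points at equal covered length.

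Loss was called where the higher of the mutant libraries fell short of the lower wild-type library by 10 percentage points or more, and gain where the lower mutant library exceeded the higher wild-type one by as much. In *hda1∆*, 55 broad regions (11.3%) lost and 3 gained H4ac coverage in the spike-in set. Over all 2782 supported regions the same rule called 21.5% as lost and 2.08% as gained. In *tup1∆*, 41 broad regions (8.42%) lost and 10 (2.05%) gained, against 9.35% and 5.43% of all supported regions. A margin of 10 points is at least 200 bp in a broad region and less in a narrower one. With a fixed margin of 200 bp, a rule chosen after seeing the data, 16.02% of broad and 16.4% of narrower regions lost coverage in *hda1∆*, and 10.7% and 7.19% in *tup1∆*. The rule compares the extreme libraries of each group, so a count can only stay or rise when a library is left out. Without the second *tup1∆* library, losses in *tup1∆* numbered 76. In *hda1∆* they numbered 87 without the first and 105 without the second *hda1∆* library. The few gains in *hda1∆* numbered 6 without its first library and 11 without the second wild-type library. In *tup1∆* they numbered 17 without its first library and 20 without the second wild-type library.

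The set without spike-in gave larger losses, but its wild-type libraries chose the regions, so these values are a description with no test. Mean coverage was 88.7 and 87.5% in *hda1∆*, 91.9 and 91.1% in *tup1∆*, and 100% by definition and 97.2% in wild-type libraries. In this set, 133 regions (27.3%) lost coverage in *hda1∆*, against 41.1% of all supported regions, and 70 (14.4%) lost it in *tup1∆*, against 15.9%. Of the 55 losses in *hda1∆* with spike-in, 42 (76.4%) were among the 133 (31.6% of these). Of the 41 in *tup1∆*, 37 (90.2%) were among the 70 (52.9%).

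Coverage in *hda1∆* was lower along the whole of the regions, most steeply at their ends. When each region was cut into 10 equal parts, H4ac coverage with spike-in was, in the first and last part, 71.0 and 74.2% in *hda1∆*, 77.5 and 84.5% in *tup1∆* and 85.3 and 88.4% in wild-type libraries. In the middle 2 parts it was 95.6 and 95.6% in *hda1∆*, 94.4 and 95.9% in *tup1∆* and 97.9 and 98.1% in wild-type. The region ends were set by a wild-type library, which favours wild-type there. A broad region in *hda1∆* was mostly still 1 peak, with 451 and 443 regions touched by a single peak and 34 and 44 by 2 or more, against 468 and 466 by a single one and 19 and 21 by 2 or more in wild-type. The *tup1∆* libraries overlapped those of *hda1∆*, with 447 and 460 regions touched by a single peak and 40 and 27 by 2 or more.

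**Figure D2:**
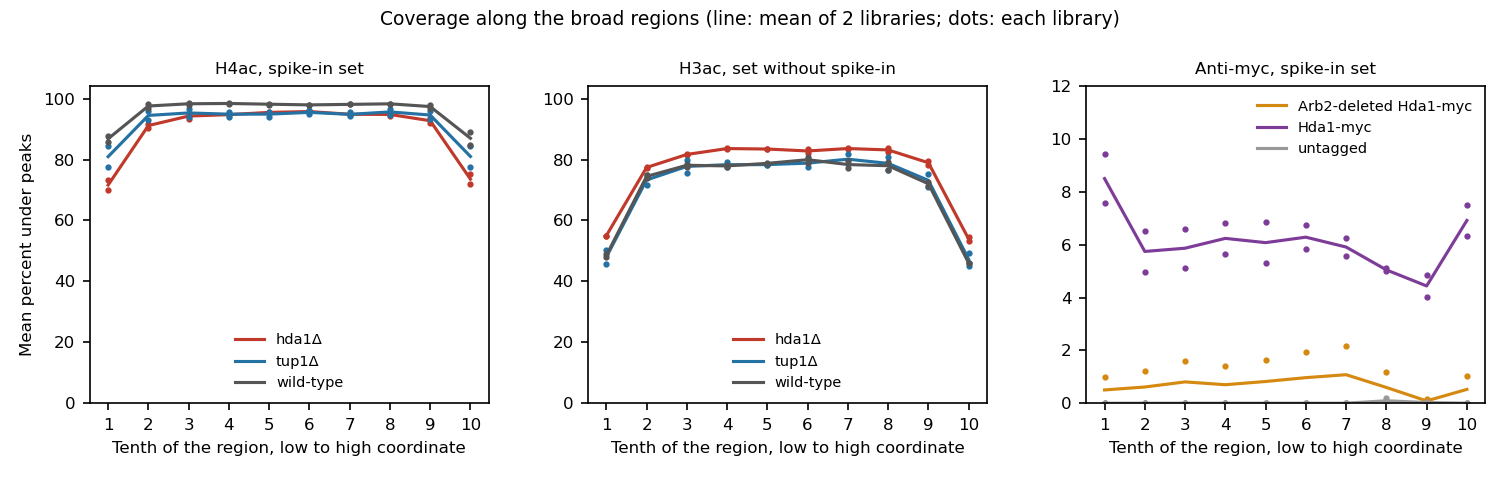
Mean percent under peaks (vertical axis) in each of 10 equal parts of the 487 broad regions, from the lower to the higher coordinate (horizontal axis), with a line for the mean of 2 libraries and dots for each. H4ac coverage averaged 95.6% in *hda1∆* against 98.04% in wild-type in the middle 2 parts, and 72.6% against 86.9% in the first and last; the anti-myc panel has its own scale, to 12%.

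The largest single losses in *hda1∆* lay at genes of various functions and varied between libraries. At chrXII:777495-780436, over *PEX30*, which regulates peroxisome size and number, and *CWC24*, a splicing factor gene, spike-in H4ac peaks covered 0 and 30.1% in *hda1∆*, 65.2 and 68.3% in *tup1∆* and 80.01 and 99.2% in wild-type libraries. The *hda1∆* values of the set without spike-in were 60.1 and 38.1%, below the 100 and 99.3% of wild-type but above those of the first set. At *ORT1* (chrXV:569246-571384), the mitochondrial ornithine transporter gene, coverage was 0 and 56.8% in *hda1∆* against 89.6 and 85.9% in wild-type. The groups did not overlap at these or the next 3 regions. Those were a stretch of chromosome XIII with no spanned gene (35.98 and 66.96% against 100 and 100%), the region of *NQM1*, a transaldolase gene, and *MTE1* (34.3 and 56.1% against 86.6 and 92.6%), and that of *SNL1*, which encodes a membrane protein that binds Hsp70 (56.8 and 56.5% against 100 and 100%). At *SNL1*, the set without spike-in gave nearly the same, 60.7 and 54.6% in *hda1∆* against 100 and 94.8% in wild-type. The other falls were smaller in that set. The *hda1∆* minus wild-type difference was -27.1 points at *ORT1*, against -59.4 with spike-in. It was -18.1 against -44.4 at *NQM1* and *MTE1*, and -36.6 against -48.5 in the chromosome XIII region.

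Gains in *hda1∆* were fewer and smaller. At *MAE1*, the malic enzyme gene (chrXI:382801-384828), coverage was 93.2 and 63.9% in *hda1∆*, 44.0 and 49.7% in *tup1∆* and 44.4 and 47.6% in wild-type libraries of the spike-in set. H3ac coverage there was also higher in *hda1∆*, at 76.4 and 63.8% against 40.4 and 43.6% in wild-type. In the set without spike-in, however, wild-type H4ac covered 100 and 94.4% of it by the choice of regions, beside 97.9 and 96.4% in *hda1∆* and 46.2 and 43.6% in *tup1∆* libraries. Other gains were the region of *MRM1* and *HIS3*, a histidine synthesis gene often used as a strain marker, at 100 and 100% in *hda1∆* against 82.2 and 80.8% in wild-type, and that of *SSO1*, *NSL1* and *VMA11* at 100 and 97.03% against 79.0 and 85.5%. The *SSO1* region rose as much in *tup1∆*, to 97.8 and 98.8%, by 16.04 points against 16.3 in *hda1∆*. The *HIS3* region had 82.5 and 90.5% in *tup1∆*. At *YPQ2* and *TRR1* (thioredoxin reductase) the gain was 26.3 points, but the lower *hda1∆* library, at 80.1%, was within 10 points of the higher wild-type one, at 79.0%. At *PGD1*, a Mediator subunit gene, the libraries overlapped, with 58.2 and 73.7% in *hda1∆* against 29.7 and 66.3% in wild-type. Without spike-in, the *hda1∆* minus wild-type difference was -0.049 points at *MAE1*, 0.989 at *SSO1*, -5.90 at *TRR1* and -27.6 at *PGD1*, and both strains were at 100% at *HIS3*.

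In *tup1∆*, the 5 deepest losses left between 15.2 and 30.4% of the region under H4ac peaks in both libraries, at *IMA2*, *MAL12*, *IME1*, *ALD6* and *MPF1*. At *IME1*, the master regulator of entry into meiosis, and *FIP1*, a gene of mRNA 3′ end processing (chrX:603705-605771), spike-in H4ac peaks covered 26.8 and 27.6% in *tup1∆*, 91.7 and 93.5% in *hda1∆*, and 100 and 100% in wild-type libraries. The peak left in *tup1∆* overlapped *FIP1* and not *IME1*, as the map of called peaks shows. At *ALD6*, which encodes cytosolic acetaldehyde dehydrogenase (chrXVI:432559-434994), coverage was 30.4 and 24.4% in *tup1∆* against 99.8 and 98.7% in wild-type. At *MPF1* (chrXIV:353044-355209) it was 25.7 and 30.3% against 96.5 and 99.6%. At the maltase gene *MAL12* (chrVII:1076977-1079149) it was 24.9 and 24.3% against 100 and 95.6%, and at the isomaltase gene *IMA2* (chrXV:21970-23988) 21.5 and 15.2% against 100 and 100%. *MAL12* and *IMA2* have near-identical copies elsewhere in the genome, so their values are uncertain. The set without spike-in gave 26.6 and 27.6% at *IME1* and 43.1 and 26.1% at *ALD6* in *tup1∆*. Of the 41 regions that lost coverage in *tup1∆*, 10 lay within 30 kb of a chromosome end, where 29 of the 487 regions lay, and of the 55 in *hda1∆* 4 did. Losses near chromosome ends were not counted among narrower regions. Whether these counts are particular to broad regions is therefore not known, and they were not tested.

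The largest gains in *tup1∆* were at *SDH3*, a subunit of succinate dehydrogenase, and *MRP8* (99.3 and 98.1% against 58.4 and 73.8% in wild-type), at *FHN1* (77.6 and 84.1% against 36.4 and 60.5%), at *PKR1*, which is needed to assemble the V-ATPase (91.02 and 90.7% against 68.5 and 51.4%), and at *BRL1*, a nuclear envelope protein gene (100 and 100% against 71.6 and 72.5%). In each of these 4 regions both *tup1∆* libraries lay above both wild-type ones by more than 10 points. The set without spike-in, whose wild-type libraries chose the regions, gave smaller or opposite differences. There the *tup1∆* minus wild-type difference was 3.11 points at *SDH3* and *MRP8*, -3.14 at *PKR1* and -1.08 at *BRL1*, and at *FHN1* it was -17.7, with 85.3 and 79.3% in *tup1∆* against 100 and 100% in wild-type. At *YPQ2* and *TRR1* the *tup1∆* libraries, at 84.3 and 100%, also lay above wild-type, the lower by under 10 points.

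**Figure D3:**
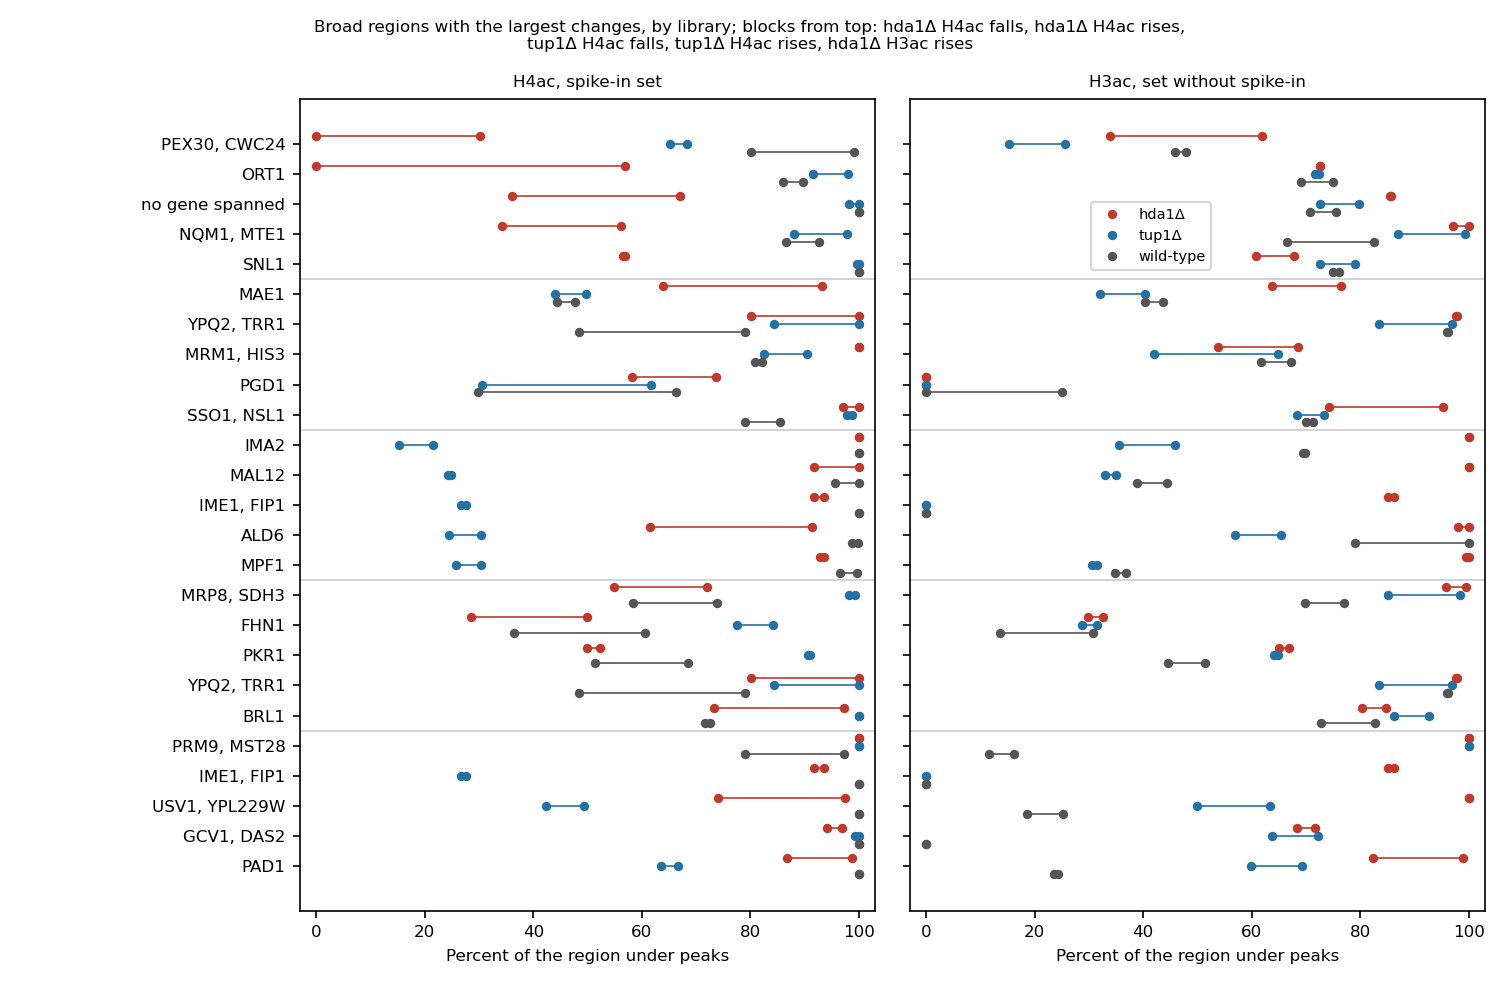
Percent of the region under peaks (horizontal axes) in each library for the regions with the 5 largest falls or rises in each comparison, with H4ac of the spike-in set on the left, H3ac of the set without spike-in on the right, and a line joining the 2 libraries of a strain. The 5 *tup1∆* losses lie between 15.2 and 30.4% in *tup1∆* and between 95.6 and 100% in wild-type.

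**Figure D4:**
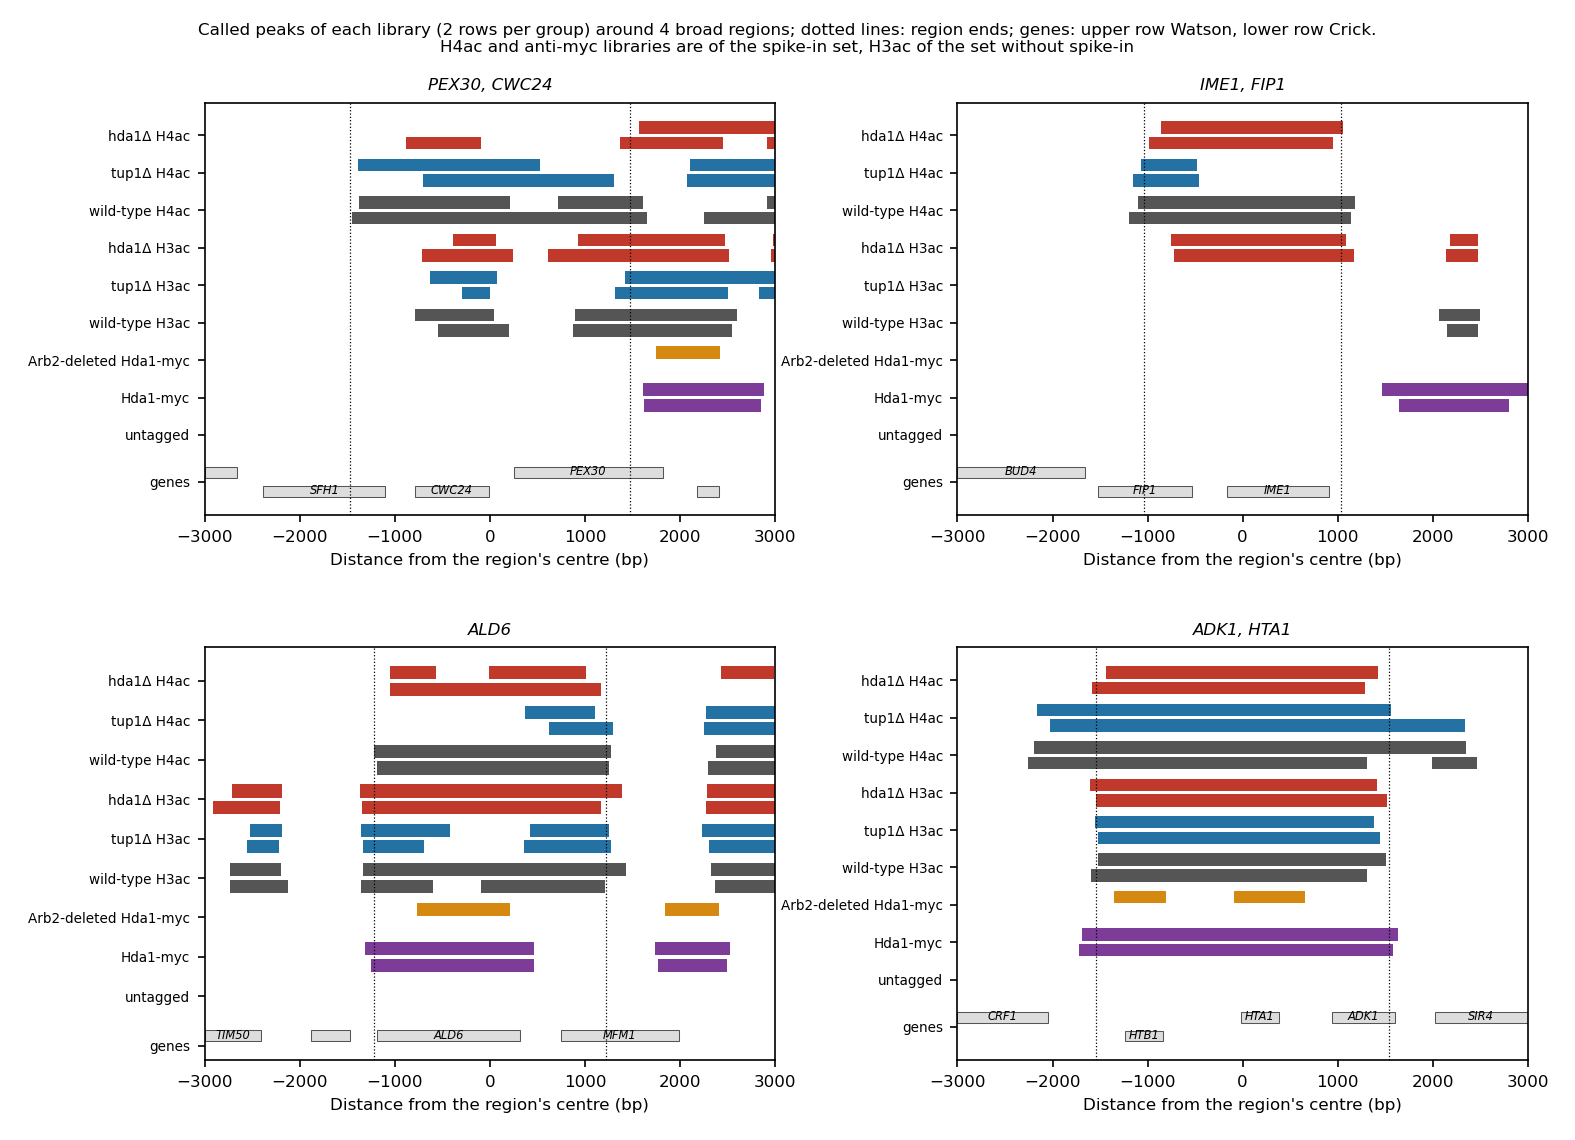
Called peaks of each library (1 row each, 2 per group) against distance from the region's centre in bp, for the regions of *PEX30* and *CWC24*, of *IME1* and *FIP1*, of *ALD6*, and of *ADK1*, *HTA1* and *HTB1*, with region ends dotted and genes of the R64 table below. At *IME1*, H4ac peaks cover 26.8 and 27.6% of the region in *tup1∆* and 100% in wild-type, and H3ac peaks cover 86.2 and 85.1% in *hda1∆* and none of it in *tup1∆* and wild-type.

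The regions were chosen as wild-type H4ac peaks, so a lower coverage by H3ac than by H4ac peaks follows from the choice. H3ac peaks covered 76.3 and 76.4% of a broad region on average in *hda1∆*, 73.0 and 69.7% in *tup1∆* and 71.8 and 70.6% in wild-type libraries. In wild-type, 97 regions (19.9%) were at 90% or more in both libraries, 17 (3.49%) were under 20% in both, and 6 (1.23%) had no H3ac peak in either. Of narrower regions, 18.3% were at 90% or more, 25.01% under 20% and 24.4% without a peak. Broad regions were often split into separate H3ac peaks, with 2 or more in 156 and 164 of 487 regions in wild-type. The mean was 76.3 ± 0.0686% in *hda1∆* and 71.2 ± 0.813% in wild-type (SD, n = 2 each), a difference of 5.15 points (exact permutation p = 0.33, 0.40 adjusted), and 5.96 points at narrower regions. The change at broad minus that at narrower regions was -0.813 points (exact permutation p = 0.67, 0.71 adjusted). At equal covered length the difference at broad regions was 0.161 points, and the change at broad minus narrower regions turned to 6.83. In *tup1∆*, the mean was 71.4 ± 2.31%, 0.166 points from wild-type, and the libraries overlapped (p = 1.0, exact permutation test).

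By the margin of 10 points, H3ac gains in *hda1∆* were about as frequent in broad regions as among all supported regions. In *hda1∆*, 80 broad regions (16.4%) gained and 20 (4.11%) lost H3ac coverage, against 16.2% and 5.25% of all supported regions. In *tup1∆*, 57 (11.7%) gained and 50 (10.3%) lost it, against 13.1% and 11.1%. The losses in *tup1∆* numbered 102 without its first library and 84 without the second wild-type library, and those in *hda1∆* 41, 36 and 41 without its first, its second and the second wild-type library. Such counts can only stay or rise when a library is left out. By width, 42 of 207 regions of 2000 to 2500 bp (20.3%), 31 of 200 of 2500 to 3500 bp (15.5%) and 7 of 80 wider ones (8.75%) gained H3ac coverage in *hda1∆*. A margin of 10 points spans more bases in a wider region. By a fixed margin of 200 bp, 21.15% of broad and 11.7% of narrower regions gained H3ac coverage in *hda1∆*. Losses there were 6.78% and 3.44%. In *tup1∆*, 15.4% of broad and 10.02% of narrower regions gained H3ac coverage by that margin, and 14.4% and 6.97% lost it. The near-equal shares of gains in *hda1∆* were thus not seen with 200 bp. That length is more easily reached in a wider region, so these shares depend on width too.

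Single regions changed widely. At *IME1* and *FIP1*, H3ac peaks covered 86.2 and 85.1% in *hda1∆* and none in either *tup1∆* or wild-type library, while H4ac coverage was high in *hda1∆* and wild-type and low in *tup1∆*. At *USV1*, a transcription factor gene (chrXVI:115396-118017), H3ac covered 100 and 100% in *hda1∆*, 63.4 and 49.9% in *tup1∆* and 25.3 and 18.5% in wild-type, while spike-in H4ac peaks covered 97.4 and 74.1% in *hda1∆*, 42.4 and 49.3% in *tup1∆* and 100 and 100% in wild-type. At *GCV1*, a subunit of glycine decarboxylase, and *DAS2* (chrIV:484661-487056), H3ac covered 71.6 and 68.4% in *hda1∆*, 72.2 and 63.8% in *tup1∆* and none in wild-type. At *PAD1*, which encodes phenylacrylic acid decarboxylase, the values were 82.4 and 98.9% in *hda1∆*, 59.8 and 69.3% in *tup1∆* and 23.6 and 24.3% in wild-type. The largest gain, at *PRM9* and *MST28* (chrI:187020-189051), with 100% in all *hda1∆* and *tup1∆* libraries and 16.2 and 11.7% in wild-type, lies in a gene family with near-identical copies and is uncertain. *MAL12*, *MPF1* and *ALD6*, named above for their H4ac losses in *tup1∆*, were fully or nearly fully covered by H3ac in *hda1∆* (98.03 to 100%). In wild-type, H3ac covered 38.8 and 44.4% at *MAL12*, 34.8 and 36.9% at *MPF1*, and 100 and 79.1% at *ALD6*. The *hda1∆* and *tup1∆* comparisons share their wild-type libraries. Of the 55 regions with a spike-in H4ac loss in *hda1∆*, 12 (21.8%) were among the 80 with an H3ac gain (15% of these).

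Inside broad regions, H3ac was high around start codons and dipped in the coding region, and the dip was shallower in *hda1∆*. In the 100 bp after the 1354 start codons within broad regions, H3ac peaks covered 81.9 and 82.2% of region bases in *hda1∆*, 83.0 and 79.9% in *tup1∆* and 81.999 and 80.8% in wild-type libraries. From 500 to 600 bp into the gene they covered 69.4 and 69.1% in *hda1∆*, 64.9 and 60.3% in *tup1∆* and 61.9 and 61.1% in wild-type. Both *hda1∆* libraries lay above the other 4 there. H3ac peaks covered more of the genome in *hda1∆*, 3131883 and 3152437 bp, than in wild-type, 2720225 and 2681703 bp. In *tup1∆* they covered 3131542 and 2874686 bp. The profile was not repeated at equal covered length, where the mean H3ac difference at broad regions was much smaller, as given above. Whether the shallower dip reflects the longer called length was not tested. Spike-in H4ac coverage had a smaller dip, at 700 to 800 bp, where it was 88.0 and 89.2% in *hda1∆*, 85.6 and 91.8% in *tup1∆* and 93.6 and 94.6% in wild-type. In the 100 bp after the start codon, *tup1∆* (97.2 and 98.3%) was level with wild-type (97.6 and 97.9%), and *hda1∆* was below both (91.2 and 92.1%). These profiles are a description, because bins far from the start codon hold fewer genes and neighbouring genes share bases.

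**Figure D5:**
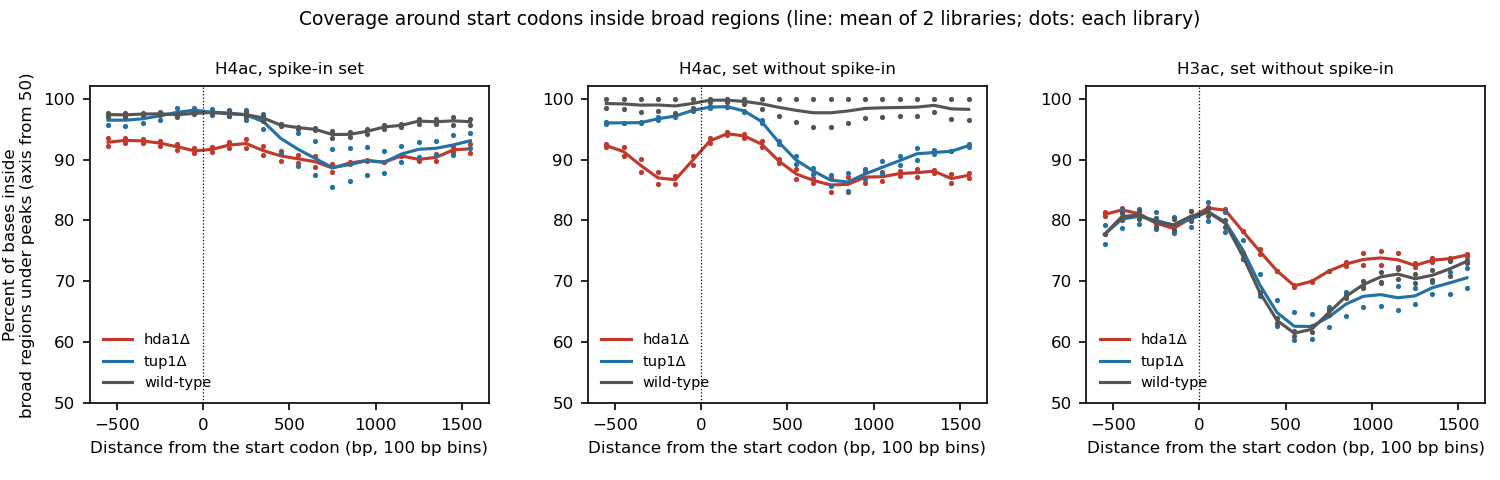
Percent of bases inside broad regions under peaks (vertical axis, from 50) in 100 bp bins by distance from the start codon (horizontal axis, bp), for 1354 start codons, with a line for the mean of 2 libraries and dots for each. H3ac coverage at 500 to 600 bp was 69.4 and 69.1% in *hda1∆*, 64.9 and 60.3% in *tup1∆* and 61.9 and 61.1% in wild-type.

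Hda1-myc peaks covered little of the broad regions. In the spike-in set, mean coverage was 6.67 and 5.55% in Hda1-myc libraries and 0.0236 and 0% in untagged ones. In the set without spike-in it was 4.67 and 4.21% against 0 and 0.0277%. Over both sets, Hda1-myc exceeded untagged by 5.26 points, in 4 of 4 libraries (exact permutation within sets, p = 0.056, the smallest the design allows, 0.40 adjusted). Within each set the exact permutation p was 0.33. At the covered length of the shorter untagged list, which keeps few peaks by construction, the difference over both sets was -0.007 points. At narrower regions, Hda1-myc coverage was higher, at 9.999 and 8.65% with spike-in and 6.65 and 5.98% without. The Hda1-myc change at broad minus that at narrower regions was -3.17 points with and -1.88 points without spike-in (exact permutation p = 0.33 each, 0.40 adjusted).

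Peaks of Hda1-myc touched broad regions often but rarely filled them. In the spike-in set, both Hda1-myc libraries touched 121 broad regions (24.8%) and 437 narrower ones (19.0%), and both covered at least 50% of 9 broad regions (1.85%) and of 138 narrower ones (6.01%). Hda1-myc peaks of that set had median widths of 834 and 827 bp. Median region width was 2642 bp for broad and 885 bp for narrower regions. A wider region is more easily touched and less easily filled, so both shares depend on width. By the margin of 10 points above untagged, 88 broad regions (18.1%) gained Hda1-myc in the spike-in set and 71 (14.6%) in the other, against 16.2% and 12.2% of all supported regions, and 65 regions were in both counts (73.9% of the 88 and 91.5% of the 71). Without the first untagged library of the spike-in set, the one with 235 peaks, the count was 88 again. Leaving that library out could not have lowered the count. With a fixed margin of 200 bp, 20.3% of broad and 11.7% of narrower regions gained Hda1-myc with spike-in. Without spike-in, 17.0% and 7.58% did. A fixed 200 bp is more easily reached in a wider region, so these shares depend on width too.

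The broad regions most covered by Hda1-myc lay over histone genes, *RPS25B*, *ALD6* and *TDH2*. At chrIV:914007-917092, over *HTA1* and *HTB1*, which encode H2A and H2B, and *ADK1* (adenylate kinase), Hda1-myc peaks covered 100 and 100% in the spike-in set and 88.3 and 89.0% without, and untagged libraries had none. At chrII:254557-258105, over *HHT1* and *HHF1*, which encode H3 and H4, and *IPP1* (inorganic pyrophosphatase), they covered 90.4 and 85.0% and 71.9 and 65.1%, against 11.5 and 0% in untagged libraries of the spike-in set and none in the other. The region of *RPS25B*, a ribosomal protein gene, had 86.6, 83.0, 80.1 and 81.98%, that of *ALD6* 69.0, 69.0, 68.3 and 68.8%, and that of *TDH2* (glyceraldehyde-3-phosphate dehydrogenase) and *MHO1* 59.0, 50.8, 56.1 and 55.7%, and no untagged peak lay in these 3 regions. The histone genes, *RPS25B* and *TDH2* have paralogs of near-identical sequence, and their values are uncertain. Spike-in H4ac peaks covered 92.8 and 91.7% of the *HTA1* and *HTB1* region in *hda1∆* against 100 and 92.3% in wild-type, and 99.4 and 94.7% of the *RPS25B* region in *hda1∆* against 84.3 and 91.8% in wild-type.

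The regions that gained Hda1-myc were set beside those whose acetylation changed in *hda1∆*, with no test of the overlap. Of the 88 regions, 4 (4.55%) were among the 55 with a spike-in H4ac loss (7.27% of these), a loss called in 11.3% of all broad regions. Among the 80 that gained H3ac there were 7 of the 88 (7.95%, and 8.75% of the 80), a gain called in 16.4% of all broad regions. Mean H4ac coverage in the 65 regions with Hda1-myc in both sets was 91.6 and 94.1% in *hda1∆* and 96.3 and 96.1% in wild-type, and in the 393 regions with it in neither it was 88.6 and 89.6% in *hda1∆* against 95.1 and 96.3% in wild-type. These differences were not tested against each other. H3ac coverage was 79.95 and 79.4% in *hda1∆* against 79.5 and 76.4% in wild-type in the 65 regions, and 75.6 and 75.7% against 69.8 and 69.1% in the 393.

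Without the Arb2 domain, Hda1-myc peaks covered still less. Mean coverage of broad regions was 1.34 and 0% in Arb2-deleted libraries of the spike-in set against 6.67 and 5.55% with full-length Hda1-myc, and 1.501 and 0.529% against 4.67 and 4.21% in the set without. The difference over both sets was -4.43 points (exact permutation within sets, p = 0.056, 0.40 adjusted), and without the second Arb2-deleted library of the spike-in set, the one with 59 peaks, it was -4.10. At least 10 points were lost in 71 broad regions (14.6%) in the spike-in set and in 47 (9.65%) in the other, against 14.3% and 9.35% of all supported regions. With a fixed margin of 200 bp, 18.1% of broad and 7.71% of narrower regions lost coverage with spike-in. Without spike-in, 12.9% and 4.97% did. A wider region more easily holds 200 bp of peak to lose, so these shares depend on width. At *HTA1* and *HTB1*, Arb2-deleted libraries covered 41.8 and 0% in the spike-in set and 52.2 and 37.5% without, against 100 and 100% and 88.3 and 89.0% with full-length Hda1-myc. At *ALD6* they covered 40.4 and 0% and 49.9 and 0%, against 68.3 to 69.0% in all 4 full-length libraries.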

How the data were processed

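The data were 30 peak lists from ChIP-seq of *S. cerevisiae*, 2 libraries for each of 15 combinations of strain, antibody and set. Per the labels and methods, the authors checked reads with FastQC 0.11.5, aligned them with Bowtie2 2.2.5, filtered them with Picard 2.6, converted formats with bedtools 2.26.0 and called peaks in each library with MACS2 2.1.0. The labels name build R64 (sacCer3), while the study's methods name an older release. The control used in calling is not clear from these sources, and the methods describe spike-in chromatin for all libraries but H3ac, although a labelled set has none. The deposited lists give for each peak a fold enrichment (a ratio over background) and a −log10 q-value as the authors' peak caller wrote them. They hold no counts, so no interval for counting error could be given, and more deeply read libraries may hold more and wider peaks.

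The percent of each region's bases under peaks was computed with Python 3.11.15, numpy 2.4.6 and pandas 2.3.3, and checked on simulated peak lists. Region values were averaged per library and libraries compared by exact two-sided permutation tests, with Benjamini-Hochberg adjustment over 18 tests. H4ac without spike-in was not tested, because it chose the regions. Genes came from the RefSeq R64 table. The regions named were the 10 widest, those with the 5 largest falls and 5 largest rises in mean spike-in H4ac coverage for each mutant, the 5 largest H3ac rises in *hda1∆*, the 5 largest Hda1-myc values over both sets, and the 3 nearest on each side of 2000 bp. Members, gene lists and tests were chosen with earlier results of these data known. No genome sequence was used here, and a planned motif search was not run.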

Additional observations from a re-analysis of the deposited data

How the results depend on the processing

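Direction held in 234 of 246 alternative coverage values, and 117 of 184 alternative counts stayed within 1.5 times. The 246 include the replicate-block value of each of the 18 tests, which repeats the main value and could not reverse. They also include the H4ac values of the set without spike-in. Its wild-type libraries chose the regions, so the direction there was largely fixed by that choice. The 184 include counts at other width limits, where the number of regions differs. They also include counts with a library left out, which can only stay or rise. The 12 reversals came mostly from taking peaks in order of q to an equal covered length. The change at broad minus that at narrower regions became -5.40 points for H4ac in *hda1∆* with spike-in, 2.36 in *tup1∆*, 6.83 for H3ac in *hda1∆* and 4.07 in *tup1∆*. The H3ac mean in *tup1∆* became -3.18, and -0.094 with regions taken from the second library. Over all bases pooled, the change at broad minus that at narrower regions was 0.1 points for H4ac in *tup1∆* with spike-in. The cause of these reversals was not tested. For anti-myc libraries the equal length is that of the shortest list, down to 9626 bp in an untagged library, which by construction leaves little to compare. Mean differences at broad regions were then -0.014 for Hda1-myc without spike-in, -0.007 over both sets and 0.004 for the Arb2 deletion with spike-in.

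Counts followed width limit and margin. The width limit also set the number of regions, with 858 at 1500 bp and 280 at 2500 bp against 487 at 2000 bp. Counts at other width limits are to be read beside these numbers. A different count there is not by itself a different share of regions. With limits of 1500 and 2500 bp, there were 115 and 32 H4ac losses in *hda1∆* and 80 and 22 in *tup1∆* with spike-in, and 240 and 76 and 125 and 38 without. H3ac losses were 40 and 12 in *hda1∆* and 93 and 25 in *tup1∆*, and gains 149 and 38 and 105 and 27. Hda1-myc gains were 139 and 56 with spike-in and 45 at 2500 bp without, Arb2 losses 114 and 42 and 77 and 29, and the few H4ac gains 8 in *hda1∆* and 22 in *tup1∆* at 1500 bp. With margins of 5 and 25 points, H4ac losses were 108 and 18, 68 and 20, 210 and 37, and 119 and 27 in the same order, and H4ac gains 0 in *hda1∆* at 25 points and 20 and 1 in *tup1∆*. H3ac losses were 44 and 1 in *hda1∆* and 91 and 10 in *tup1∆*, and gains at 25 points 31 and 23. At 25 points Hda1-myc gains were 35 and 23 and Arb2 losses 21 and 9, and at 5 points there were 72 Arb2 losses without spike-in. At equal length, Hda1-myc gains were 0 in both sets, Arb2 losses 0 and 1, H3ac losses in *hda1∆* 53 and H4ac gains there 5, also 5 with regions from the second library. With a margin of 200 bp, H3ac losses in *hda1∆* were 33.

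Leaving out each library in turn, mean H4ac differences with spike-in were -6.52 to -5.27 in *hda1∆* and -5.08 to -2.10 in *tup1∆*, and without -11.9 to -9.11 and -8.46 to -5.65. The change at broad minus narrower regions was 11.1 to 12.4 and -2.78 to -0.808 with spike-in. For H3ac, the mean was 4.58 to 5.73 in *hda1∆* and -1.47 to 1.80 in *tup1∆*, where it was -1.47 without the first *tup1∆* and -0.409 without the second wild-type library. Both mutants' broad minus narrower H3ac values were -1.85 to -0.008. Hda1-myc means were 5.54 to 6.65 and 4.20 to 4.66, Arb2 means -6.11 to -4.77 and -3.91 to -2.94, and over both sets 4.98 to 5.54 and -4.77 to -4.10. Counts, unlike means, can only stay or rise when a library is left out. H4ac losses numbered 67 to 105 and 44 to 76 with spike-in and 133 to 187 and 70 to 100 without, and gains 4 to 11 and 10 to 20. H3ac losses were 28 to 41 and 57 to 102, and gains 100 to 117 and 66 to 78. Hda1-myc gains were 88 to 103 and 71 to 85, and Arb2 losses 71 to 89 and 47 to 64.

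Strains share replicate numbers but no stated batch, and the deviations of same-numbered libraries correlated at -0.035 to 0.13 across regions. With a replicate block the *hda1∆* difference with spike-in was -5.90, with a smallest possible exact permutation p of 0.5, and p was 0.125 for both values over both sets. No result passed 0.05 with or without it.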
